A study of Mus musculus with 6 samples.

Results

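Far intergenic H3K27ac regions are stretches of the genome that carried the mark in B16 cells, lay outside every annotated gene body and had no transcription start site (TSS) within 10 kb. To find them, the authors' peak lists of the 4 H3K27ac libraries were merged wherever peaks shared at least 1 bp, and regions called in 2 or more lists were kept. Of 182798 merged regions on chromosomes 1 to 19, X and Y, 33437 were called in 2 or more lists, and 3540 of these (10.6%) met the rule and are described here. The regions were chosen by the peak calls themselves and by position, so the number of lists that hold a region is a description and not a test. A further 42256 far intergenic regions were called in a single list, and only 7.73% of all far intergenic regions reached a second list, against 12.5% of gene-body regions as far from a TSS and 50.6% of promoter regions, those with a TSS within 1 kb.

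B16 F10 is a mouse melanoma line, a tumour of pigment cells, seeded here at 100 cells per cm2. On day 5, low pigmented (LP) and high pigmented (HP) cells were separated by their side scatter, fixed with formaldehyde for 10 min and immunoprecipitated for H3K27ac, with 2 replicates of each. For each replicate number, an IgG library of cells that had not been sorted served only as the control of the authors' peak calling. No treatment or added allele is named for these cells, they are a single tumour line, and the labels do not say whether replicates came from separate cultures. The H3K27ac libraries held 11467942 and 15353176 fragments in LP, against 11483830 and 14254904 in HP, in the order of the replicates, an order kept for every pair of values here. As a check of the cell type, the promoters of Mitf, Sox10, Tyr, Dct and Pmel overlapped a peak in all 4 lists and those of Tyrp1 and Mlana in 3, whereas none of the 7 promoters checked for keratinocytes, fibroblasts, blood cells and endothelium did so in all 4. Of those 7, Krt5 and Ptprc overlapped no peak, Krt14 and Cd68 did in 1 list, Pecam1 in 2, and the fibroblast genes Col1a1 and Pdgfra in 3.

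H3K27ac is the acetylation of lysine on the tail of histone H3, laid down chiefly by the acetyltransferases p300 and CBP, and it marks active promoters and active enhancers. Enhancers can act over long distances, so a marked stretch far from any TSS need not belong to the nearest gene. In pigment cells, distal elements are known to be bound by MITF and SOX10, the transcription factors that set the lineage.

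The sequences that carry the main observations come first, each as a window of 201 bases centred on the highest summit of a region, from RefSeq's copy of the GRCm38 (mm10) assembly. The first 3 are rich in CpG, with the CpG pairs in capitals. They are the region upstream of Pum2 with the highest fold enrichment of all far intergenic regions, the region upstream of Klf4 and the region upstream of Dct.
Pum2 upstream, chr12:8640824-8641024, plus strand: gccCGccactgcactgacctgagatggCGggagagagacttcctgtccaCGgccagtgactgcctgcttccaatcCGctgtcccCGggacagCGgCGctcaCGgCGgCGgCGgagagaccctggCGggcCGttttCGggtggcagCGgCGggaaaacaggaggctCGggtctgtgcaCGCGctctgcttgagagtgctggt
Klf4 upstream, chr4:55651387-55651587, plus strand: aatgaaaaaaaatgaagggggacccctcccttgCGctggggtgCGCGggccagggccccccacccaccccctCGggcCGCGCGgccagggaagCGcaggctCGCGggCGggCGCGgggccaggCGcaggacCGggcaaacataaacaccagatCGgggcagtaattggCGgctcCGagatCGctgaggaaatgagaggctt
Dct upstream, chr14:118089292-118089492, plus strand: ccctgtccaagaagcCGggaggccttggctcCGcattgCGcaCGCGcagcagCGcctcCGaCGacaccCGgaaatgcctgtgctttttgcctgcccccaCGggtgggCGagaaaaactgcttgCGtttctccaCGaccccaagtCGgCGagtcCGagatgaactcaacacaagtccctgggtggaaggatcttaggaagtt
The next 4 have a short motif match in capitals. Fgfr2, the strongest HP against LP difference, holds the M-box letters TCATGTG on the minus strand, Tyrp1 the E-box CACGTG, Mitf the TEAD letters GGAATG, and the LP region upstream of Myc the AP-1 letters TGACTCA.
Fgfr2 downstream, chr7:130001247-130001447, plus strand: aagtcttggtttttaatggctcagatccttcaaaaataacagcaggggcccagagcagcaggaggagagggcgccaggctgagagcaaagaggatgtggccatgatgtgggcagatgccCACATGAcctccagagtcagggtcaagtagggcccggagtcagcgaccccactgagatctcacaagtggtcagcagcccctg
Tyrp1 upstream, chr4:80796307-80796507, plus strand: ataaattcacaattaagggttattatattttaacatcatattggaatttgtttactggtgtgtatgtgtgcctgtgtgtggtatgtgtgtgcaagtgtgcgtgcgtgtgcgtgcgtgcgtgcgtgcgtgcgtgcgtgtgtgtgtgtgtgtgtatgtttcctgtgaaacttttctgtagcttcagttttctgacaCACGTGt
Mitf downstream, chr6:98049263-98049463, plus strand: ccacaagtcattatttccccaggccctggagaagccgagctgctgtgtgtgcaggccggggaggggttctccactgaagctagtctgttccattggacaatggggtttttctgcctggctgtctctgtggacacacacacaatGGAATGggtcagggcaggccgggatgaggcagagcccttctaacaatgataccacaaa
Myc upstream, chr15:61961501-61961701, plus strand: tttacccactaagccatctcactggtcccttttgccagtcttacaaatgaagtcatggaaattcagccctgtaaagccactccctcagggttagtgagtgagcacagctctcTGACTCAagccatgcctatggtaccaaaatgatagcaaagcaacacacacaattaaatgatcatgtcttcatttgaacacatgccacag
The last is the 4.5S RNA gene Rn4.5s as RefSeq annotates it, 174 bases long and shown from its 5′ end in lower case throughout, because 14 of the far intergenic regions lie at copies of it.
Rn4.5s, chr6:47654921-47655094, minus strand: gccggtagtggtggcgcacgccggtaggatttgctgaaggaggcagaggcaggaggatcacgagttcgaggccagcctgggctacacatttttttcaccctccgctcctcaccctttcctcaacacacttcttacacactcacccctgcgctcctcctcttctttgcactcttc

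The libraries did not share these regions evenly. Both HP lists and neither LP list called 1116 of the 3540 regions (31.5%), against 21.5% of all regions called in 2 or more lists. The opposite pattern, both LP lists and neither HP list, held 107 regions (3.02%), against 1.36% of all such regions. Both shares were above the background, and the gene-body regions far from a TSS had similar ones, 29.9% and 2.49%. Far intergenic regions were also in exactly 2 lists more often, 63.2% against 43.2% of all regions. Among regions in exactly 2 lists, the HP pattern held 1116 of 2238 far intergenic ones and 7200 of all 14430, nearly the same share. The LP pattern held 107 of those 2238 and 455 of those 14430. All 4 lists held 487 far intergenic regions (13.8%), while 65.3% of promoter regions were in all 4. LP replicate 2, HP replicate 1 and HP replicate 2 together shared 593 regions, and LP replicate 2 with HP replicate 2 shared 551. LP replicate 1 took part least, with a call in 1098 regions (31.0%), against 1956 (55.3%) in LP replicate 2 and 2735 (77.3%) and 3080 (87.0%) in HP.

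**Figure D1:**
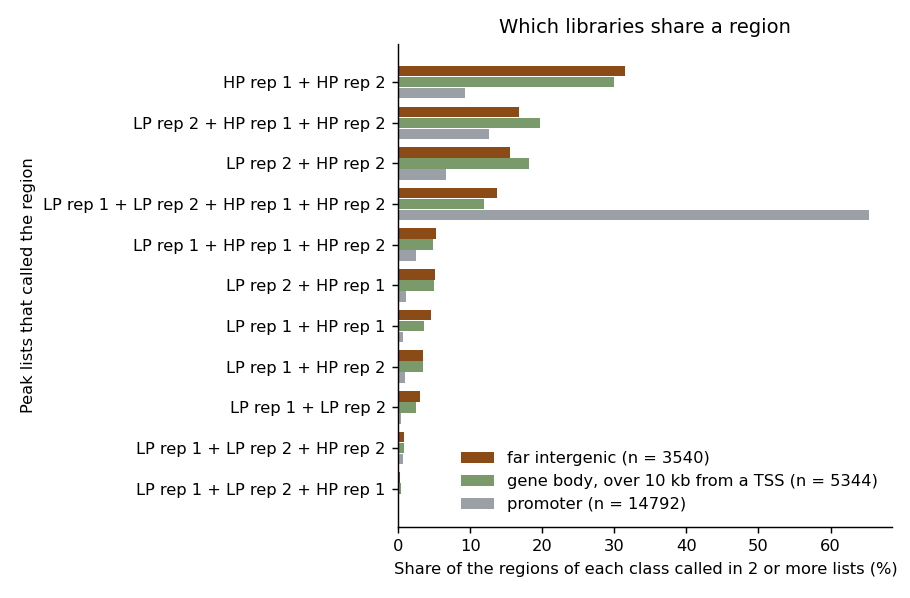
Share of the regions of each class (horizontal axis, percent of the regions called in 2 or more lists) that was called by each combination of the 4 peak lists (vertical axis). Far intergenic regions are most often shared by both HP lists alone (31.5%), promoter regions by all 4 lists (65.3%).

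A region called in more lists was wider and higher. Both trends are partly built in, because a width spans the merged peaks of all lists and higher sites are called more readily. The median width was 490 bp for regions in 2 lists, 909 bp for those in 3 and 1477 bp for those in 4, against 628 bp over all 3540 and 234 bp for the far intergenic regions of a single list. Levels are given as scaled pileup, the number of fragments covering the summit per 1000000 fragments of the library. The mean scaled pileup over the lists that called a region had a median of 0.847 in 2 lists, 1.24 in 3 and 1.77 in 4. These are small counts. The median summit of a called far intergenic region was covered by 9 and 13 fragments in LP and by 13 and 17 in HP, and 61.1% and 30.1% of the LP summits and 35.2% and 22.2% of the HP summits rested on at most 10 fragments. Promoter summits in the same lists had medians of 33 and 36 fragments in LP, against 38 and 73 in HP. A missing call does not show that the mark was absent. LP replicate 1 and HP replicate 1 had nearly the same number of fragments but called 31.0% and 77.3% of the regions, and the part of depth in the missing calls was not tested.

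Distance from a TSS ran from the limit of 10.02 kb to 372 kb, with a median of 23.9 kb and with 10% of the regions beyond 74.1 kb. Between 10 and 20 kb lay 1422 regions, between 20 and 50 kb 1429, between 50 and 100 kb 510, between 100 and 200 kb 131, and beyond that 48. The share of far intergenic regions that reached a second list was 11.2% at 10 to 20 kb, 5.40% at 50 to 100 kb, 2.63% at 100 to 200 kb and 2.91% beyond 200 kb. Likewise 15.3% of the regions at 10 to 20 kb were in all 4 lists, against 5.34% at 100 to 200 kb. The HP pattern made up 32.2% at 10 to 20 kb and 32.8% at 100 to 200 kb, and 9 of the 48 beyond 200 kb. Just inside the limit lay a region near Ube4b (10.02 kb, HP 1.04 and 1.12) and one near Ssr2 (10.02 kb, LP replicate 1 0.785, HP 0.871 and 1.61). Just outside lay one near Tef at 10.0 kb, called in both HP lists at 2.70 and 2.10, and one near Lrp12 at 9.99 kb, called in LP replicate 2 at 0.912 and HP replicate 1 at 0.784.

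**Figure D2:**
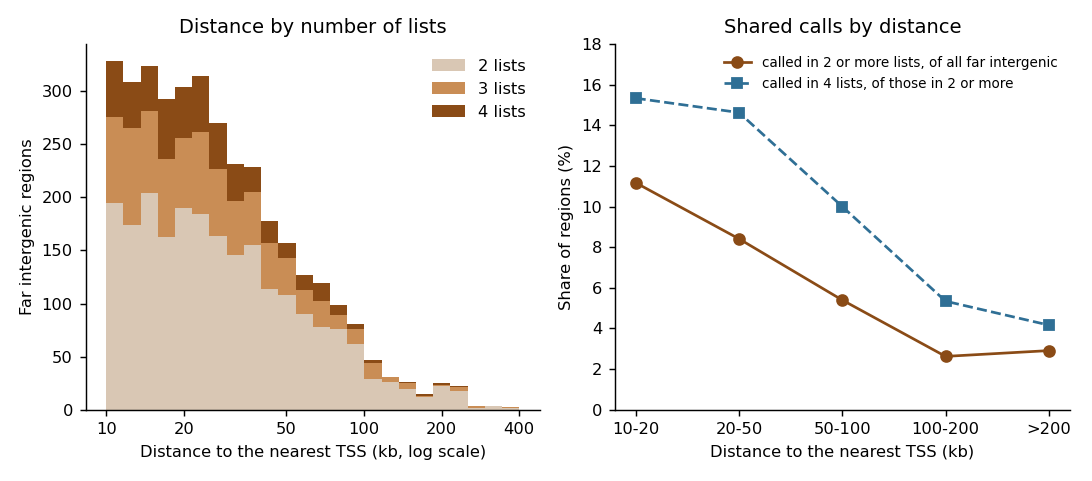
Left, number of far intergenic regions by distance to the nearest TSS (kb, log axis), stacked by the number of lists that called them. Right, share of all far intergenic regions called in 2 or more lists (circles) and share of those called in all 4 (squares) per distance bin, which go from 11.2% and 15.3% at 10 to 20 kb to 2.63% and 5.34% at 100 to 200 kb.

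The 3 most remote regions were low in the libraries that called them. A pair on chromosome 2 that has Nr4a2, an orphan nuclear receptor, as its nearest protein-coding gene, 700 and 703 kb away, was 372 and 370 kb from any TSS. The first, 360 bp wide, was called in LP replicate 2 at 0.782 and HP replicate 2 at 0.491, and the second, 1969 bp wide, in LP replicate 1 at 0.610 and HP at 0.871 and 1.12. The third, on chromosome 5, has as its nearest protein-coding gene the ephrin receptor gene Epha5, 822 kb away. It was called in LP replicate 1 at 0.523 and HP replicate 2 at 0.842, and 93.2% of its bases are soft-masked as repeats.

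The 3 widest regions were called in all 4 lists. The widest, 6526 bp wide and upstream of Atf7ip, which encodes a cofactor of the histone methyltransferase SETDB1, had scaled pileups of 2.70 and 2.08 in LP, against 6.01 and 11.2 in HP. The second, 5763 bp wide and downstream of Irf2bpl, a transcriptional regulator, stood at 3.14 and 2.21 in LP, against 3.40 and 8.70 in HP. The third, 5693 bp wide and upstream of Noct, a circadian phosphatase gene, stood at 0.698 and 0.716 in LP, against 1.48 and 3.93 in HP. HP was above LP in both replicates of each.

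Regions often came in groups. When regions no more than 10 kb apart were joined, 1600 of the 3540 (45.2%) fell into 631 groups of at least 2, and 29 groups held 5 or more. The longest group spanned 57.1 kb near the autophagy gene Atg7 on chromosome 6, with 10 regions, of which both HP lists alone called 4 and all 4 lists called 1. Next came 35.7 kb on chromosome 15 between Myh9, a nonmuscle myosin, and Txn2, mitochondrial thioredoxin, with 7 regions. The third, 35.5 kb next to Ezh2, is part of the 4.5S RNA array described below. The nearest protein-coding genes numbered 1983, of which 1204 had a single region and 98 had 5 or more, and 2041 regions lay upstream of that gene and 1499 downstream. Being intergenic depends on the annotation. In RefSeq 578 of the regions (16.3%) lie in a gene body, 487 of them in that of a long noncoding RNA, and 2582 (72.9%) are neither in a RefSeq gene nor within 10 kb of the start of one. Among the regions described here, those of Tob1, Zfp36l1, Atf7ip, Irf2bpl, Ccne1 and Gnaq, the upstream Fos region, the one nearest to Zfp239 and the array region at 47744192 overlap a predicted gene of RefSeq. By chromosome the density ran from 0.0545 regions per Mb on Y and 0.292 on X to 1.86 on chromosome 2 and 1.97 on chromosome 6.

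Many of the highest pileups of the class lay at copies of one small RNA gene. The 4.5S RNA is a short noncoding RNA of rodents transcribed by RNA polymerase III from genes in tandem arrays. RefSeq places Rn4.5s at chr6:47654921-47655094 on the minus strand, between Ezh2 and Pdia4, and the GENCODE annotation behind the rule has no gene there. A search with at least 90% identity found a copy in or within 500 bp of 14 regions, all on the minus strand and all in a stretch of 109 kb on chromosome 6. Of the 14 copies 11 were identical to the annotated gene and the most different had 9 differences over 174 bases. Neighbouring copies were a median of 4337 bp apart, with an interruption of 54596 bp in which the assembly has 50000 unknown bases.

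All 14 regions were called in all 4 lists and 13 of them were among the 20 highest far intergenic regions by mean scaled pileup. A further region on the Pdia4 side of the array, 12.9 kb from a TSS and in all 4 lists, had no such copy within 500 bp and stood at 14.6 and 14.98 in LP, against 18.98 and 21.3 in HP. The region at the copy at chr6:47752752-47752925 reached 21.9 and 31.3 in LP, against 52.4 and 49.7 in HP, the highest of the class in every library but LP replicate 1, where a region nearest to Gm8797 stood at 31.7. Its neighbours at the copies that start at 47744058 and 47748415 stood at 20.1 and 18.8 in LP with 32.6 and 28.7 in HP, and at 18.4 and 20.3 in LP with 34.3 and 30.02 in HP. The lowest of the 14, at the copy that starts at 47667918, stood at 4.53 and 3.91 in LP, against 6.53 and 8.91 in HP. Both HP values were above both LP values in each of these 4, and the fitted HP minus LP difference over the 14 ran from 0.53 to 1.03 on the log2 scale, with none called (lowest adjusted p from limma 0.145). With the libraries centred on their medians, the difference at the 3 highest of the 14 turned to -0.049, -0.28 and -0.36, and with quantile normalization it was 0.42, 0.22 and 0.14. The authors' fold enrichment at the 14 had medians of 3.96 and 7.96 in LP, against 7.13 and 14.6 in HP. Over all called far intergenic regions the medians were 4.84 and 4.77 in LP, against 6.04 and 6.64 in HP. The array thus stood apart in pileup more than in fold enrichment, and in LP replicate 1 its fold enrichment was below that of the class. Summits lay a median of 388 bp from the copy. For 8 of the 14 summit windows the same 201 bases occur again in the stretch, and 13 have a second match with at most 2 differences, so reads cannot be assigned to single copies with certainty and the values of one copy are uncertain.

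**Figure D3:**
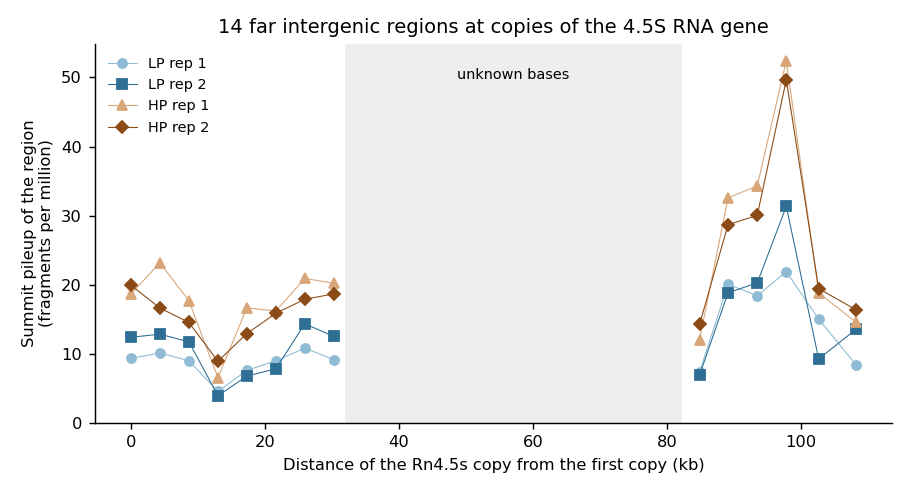
Scaled summit pileup (fragments per 1000000, vertical axis) of the 14 far intergenic regions at copies of Rn4.5s, by distance of the copy from the first copy (kb), for the 4 libraries, with the unknown bases of the assembly shaded. The copy 97.8 kb from the first is highest in every library, with 52.4 and 49.7 in HP and 21.9 and 31.3 in LP.

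Outside the array, the regions with the most significant peaks in all 4 lists lay near Pum2, Klf4 and Zfp239. The region upstream of Pum2, an RNA-binding translational repressor, at chr12:8640342-8641710 stood at 6.28 and 6.32 in LP, against 8.79 and 19.2 in HP, with fold enrichments of 42.4 and 43.4 in LP, against 56.7 and 135 in HP. The one upstream of Klf4, a pluripotency transcription factor, lies 45.0 kb from any TSS and 119 kb from Klf4 itself, at chr4:55650177-55653059. It stood at 13.6 and 6.97 in LP, against 12.5 and 17.5 in HP, so LP replicate 1 exceeded HP replicate 1 and the groups overlapped. The third such region, 16.4 kb downstream of the zinc finger gene Zfp239, stood at 9.42 and 6.06 in LP, against 8.62 and 15.2 in HP, again with overlap, and it lies inside 2 predicted RefSeq genes, Gm38882 and Gm38883. The Pum2 and Klf4 windows printed above each hold 19 CpG pairs and are 68.2% G and C. None of the 3 passed the test of HP against LP (log2 difference 1.05, 0.60 and 0.60, SE 0.54, adjusted p from limma 0.142, 0.332 and 0.333).

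A summit window had a median GC content of 52.2% over all 3540 regions, 56.2% over those in 4 lists, 51.2% in the HP pattern and 47.3% in the LP pattern, against 44.8% in far intergenic regions of a single list, 51.7% in the gene-body regions and 66.2% at promoters. Windows with 10 or more CpG pairs made up 322 of the 3540 (9.10%), but 112 of the 487 in all 4 lists (23.0%) and 37 of the 1116 of the HP pattern (3.32%). Among the 487, the 112 CpG-rich ones had median scaled pileups of 2.09 and 2.18 in LP, against 3.13 and 5.93 in HP, and the other 375 had 0.959 and 1.04 in LP, against 1.65 and 2.60 in HP. The split at 10 CpG pairs was set after the values were seen. More than 50% of the window was soft-masked in 702 regions (19.8%), compared with 33.1% of the single-list far intergenic regions, 14.4% of the gene-body regions and 4.03% of promoters.

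Short motifs, searched on both strands in the 201-base summit windows, were compared with all 33437 regions in 2 or more lists. No motif searched contains another. The AP-1 letters TGACTCA were in 4.97% of far intergenic windows and 3.45% of all, the SOX letters ACAAAG in 15.8% and 12.9%, the TEAD letters GGAATG in 10.99% and 8.88%, and the TCF/LEF letters CTTTGAT in 2.54% and 1.74%. The M-box TCATGTG was in 2.60% and 2.39% and the E-box CACGTG in 4.18% and 3.79%. In 3 patterns the far intergenic share was below that of all regions, with the TFAP2 letters GCCNNNGGC in 9.32% and 16.1%, the ETS letters CCGGAAG in 2.01% and 2.97%, and the CTCF consensus in 0.395% and 0.493%. The gene-body regions far from a TSS were close to the far intergenic ones for AP-1 (4.64%), SOX (16.6%) and TEAD (10.7%), and held the M-box in 4.17%. Among far intergenic regions the E-box was in 6.98% of the windows in all 4 lists, 3.23% of the HP pattern and 3 of the 107 of the LP pattern, while AP-1 was in 3.49%, 5.47% and 4 of 107. GC content differed among the same sets, as given above, and its part in these shares was not tested.

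Whether HP and LP differed in level was tested where all 4 libraries gave a pileup, that is at the 487 regions in all 4 lists, in a limma fit over all 12080 regions called in 4 lists. The far intergenic medians were 1.05 and 1.17 in LP, against 1.92 and 2.88 in HP. In 382 of the 487 (78.4%) both HP values were above both LP values, against 74.9% of all 12080, and in 1 of the 487 both were below, against 0.141%. The median HP minus LP difference was 1.03 on the log2 scale, 0.79 within replicate 1 and 1.33 within replicate 2. It was 0.92 over all 12080 regions, 0.90 over promoters and 1.09 over the gene-body regions, so the far intergenic median stood 0.11 above the general shift of the HP libraries. HP replicate 2 was the highest library in every class, by a median of 0.61 over HP replicate 1 at these regions, whereas the LP replicates differed by 0.11.

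Of the 487 regions, 40 (8.21%) were higher in HP at an adjusted p of at most 0.05, against a background of 4.01% of all 12080 regions, and 0 were lower, against 0%. Without adjustment, 230 had a p under 0.05 and were higher, against 36.2% of all regions, and 0 were lower. In the gene-body regions 73 of 637 (11.5%) were called, and at promoters 283 of 9664 (2.93%). The classes with lower levels had the larger shares. Median scaled pileups in LP replicate 1 were 3.05 at promoters, 1.05 in far intergenic and 0.959 in gene-body regions. Among the 487, 6 of the 112 CpG-rich regions were called and 34 of the other 375, which had lower levels. The part of level in these shares was not tested. The calls were not kept once the shift shared by all classes was removed. With each library centred on its median 0 of the 487 were called, where 15 higher and 19 lower had an unadjusted p below the same limit, and quantile normalization gave 0 as well, with 22 and 17. Without HP replicate 2, LP replicate 1 or LP replicate 2 in turn 0 were called, and without HP replicate 1 299 were. All regions had the same standard error of 0.54, because limma estimated infinite prior degrees of freedom, so a call is a matter of the size of the difference alone.

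**Figure D4:**
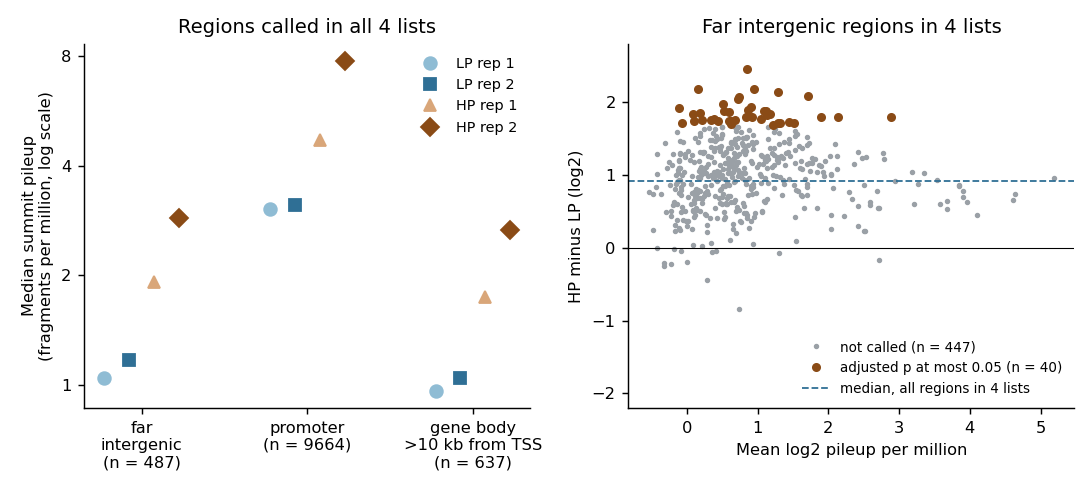
Left, median scaled summit pileup (fragments per 1000000, log axis) of each library over the regions of 3 classes called in all 4 lists. Right, HP minus LP difference (log2) against the mean log2 pileup of the 487 far intergenic regions, with the 40 called regions as large points and the median of all 12080 regions (0.92) as a dashed line.

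All 40 called regions had both HP values above both LP values, lay 10.6 to 80.2 kb from a TSS and were 3.21 to 5.46 times higher in HP. The median ratio was 2.05 over the 487 regions and 1.90 over all 12080. The LP values of the 40 were low, with medians of 0.828 and 1.01. LP summits rested on 7 and 15 fragments at the Fgfr2 region and on 46 and 60 at a region upstream of Spen. The largest difference was at chr7:130000040-130001570, 167 kb downstream of Fgfr2, a receptor for fibroblast growth factors, with 0.610 and 0.977 in LP, against 4.09 and 4.35 in HP. The log2 difference was 2.45 (SE 0.54, adjusted p from limma 0.0207), with 2.75 within replicate 1 and 2.15 within replicate 2. Upstream of Ppp2r2a, a regulatory subunit of protein phosphatase PP2A, LP stood at 1.40 and 0.586 and HP at 2.18 and 7.79, a difference of 2.19 with 0.64 within replicate 1 and 3.73 within replicate 2. Near Hfe2, a coreceptor in iron regulation, LP stood at 0.523 and 0.521 and HP at 1.48 and 3.79, and the region overlaps a transfer RNA gene of RefSeq. Upstream of Tob1, an antiproliferative gene, a region of 3903 bp stood at 1.31 and 1.04 in LP, against 3.31 and 7.997 in HP. Their log2 differences were 2.18 and 2.14, with adjusted p from limma of 0.0328 and 0.0331.

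In the other 6 of the 10 regions with the smallest p, both HP values were also above both LP values. The one downstream of Bahcc1, a chromatin-binding protein gene, stood at 1.48 and 1.69 in LP, against 4.35 and 10.4 in HP. A second region beside it, at chr11:120312734-120313498, was called in both HP lists alone at 2.70 and 3.16. Another region downstream of Bahcc1, at chr11:120304890-120306220 and in all 4 lists, showed no such difference. It stood at 2.53 and 2.54 in LP, against 2.18 and 2.67 in HP, a log2 difference of -0.073. The region upstream of Npl, an enzyme of sialic acid breakdown, stood at 0.785 and 0.847 in LP, against 2.87 and 4.07 in HP, and the one upstream of the interferon gene Ifne at the same LP values and at 2.70 and 4.21 in HP. At 234 kb downstream of Zfp36l1, which encodes an mRNA decay factor, LP stood at 0.610 and 0.847 and HP at 2.26 and 3.51. A region nearest to Zfp516 stood at 0.610 and 1.498 in LP, against 2.44 and 5.47 in HP. Downstream of the phosphatase gene Ptp4a2, HP was 2.00 and 1.61 and LP 0.436 and 0.521. Adjusted p from limma over these 6 ran from 0.0331 to 0.0391.

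Regions that ran the other way were few and none was called. The fitted difference was below 0 in 13 of the 487. The lowest was 27.3 kb upstream of Hlf, a PAR bZIP transcription factor, with 2.62 and 1.89 in LP, against 1.04 and 1.47 in HP, a log2 difference of -0.84 (SE 0.54, adjusted p from limma 0.208). It was the only one of the 487 whose HP values were both below both LP values. At a region 226 kb from Sox6, a SOX family regulator, LP stood at 1.74 and 1.17 and HP at 1.57 and 0.702, with overlap between the groups. Both were chosen after their values were seen.

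The pigment-cell genes had far intergenic regions on either side. Of the 20 genes of melanin synthesis and the melanosome, 8 were the nearest protein-coding gene of a region, with 16 regions in all. Of these 3 were in all 4 lists, all 3 with HP above LP, and 2 of the 3 were called higher in HP, where 8.21% of the 487 and 4.01% of all 12080 regions were. These were the region 66.8 kb upstream of Slc24a4, an ion exchanger linked to pigmentation, with 0.959 and 0.651 in LP, against 2.00 and 4.14 in HP (log2 difference 1.86, adjusted p from limma 0.0419), and the region 37.3 kb upstream of Dct, dopachrome tautomerase of eumelanin synthesis, with 0.698 and 0.782 in LP, against 1.65 and 3.72 in HP (1.75, adjusted p 0.0473). The third lay 25.8 kb downstream of Dct, with 0.785 and 0.847 in LP, against 1.04 and 2.53 in HP, and was not called. Both calls were lost when the libraries were centred or quantile normalized and without LP replicate 1, LP replicate 2 or HP replicate 2, settings that left 0 calls among the 487. The Slc24a4 call was also lost with the replicate block (adjusted p from limma 0.0551), with scaling to fragment length (0.0602) and with mean summits (0.128). Mean summits left 0 calls among the 487, so the Dct call was lost there too. The replicate block left 7 calls and scaling to fragment length 1, and the Dct values under these are not given here.

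Tyrp1, the second tyrosinase-related enzyme of melanin synthesis, had 4 regions, all upstream. The one at chr4:80796268-80797812, 37.1 kb away, was called at 1.24 in LP replicate 2 and at 1.74 and 4.28 in HP, and not in LP replicate 1. The other 3 were called in both HP lists alone, with the one 14.8 kb upstream at 1.39 and 2.53. Tyr, the rate-limiting enzyme of melanin synthesis, had 1 region, 13.2 kb upstream at chr7:87506475-87506931, in both HP lists alone at 0.697 and 0.631. Slc24a5, a melanosomal exchanger, had 3, of which the one 119 kb upstream stood at 1.04 in LP replicate 2 and 1.57 and 3.30 in HP. Both HP lists alone called 6 of the 16 (37.5%), beside 31.5% of the class and 21.5% of all regions, and both LP lists alone called 0. HP was not higher at all 16. A region 15.9 kb downstream of Dct stood at 0.698 and 0.912 in LP and 0.772 in HP replicate 2, without a call in HP replicate 1. A Bace2 region stood at 0.610 in LP replicate 1 and 0.421 in HP replicate 2. Another Bace2 region stood at 0.651 in LP replicate 2 and 0.871 in HP replicate 1.

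**Figure D5:**
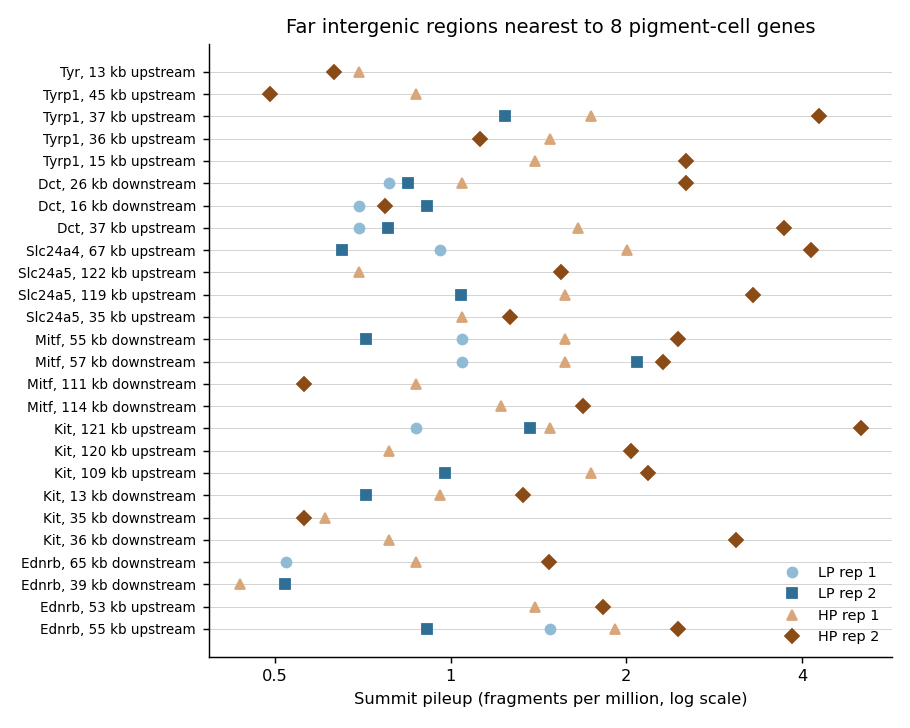
Scaled summit pileup (fragments per 1000000, log axis) in the 4 libraries of the far intergenic regions whose nearest protein-coding gene is Tyr, Tyrp1, Dct, Slc24a4, Slc24a5, Mitf, Kit or Ednrb, with distance and side of the region to the TSS of the gene. A missing symbol means that the list held no peak, as in LP for the Tyr region, where HP stood at 0.697 and 0.631.

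Of 16 transcription factor genes of the lineage 11 had 49 regions, of which 6 were in all 4 lists and 0 were called. Mitf, the master regulator of the lineage, had 4, all downstream. The one at chr6:98046076-98047482 stood at 1.05 and 0.716 in LP, against 1.57 and 2.46 in HP, while its neighbour at chr6:98047679-98050062 stood at 1.05 and 2.08 in LP, against 1.57 and 2.31 in HP, so that there LP replicate 2 exceeded HP replicate 1. The 2 others were called in both HP lists alone. Pax3, which acts upstream of Mitf, had 8, 7 of them 127 to 139 kb downstream, and the strongest difference among the regions of the list was the one at chr1:78059066-78061508, with 0.785 and 0.782 in LP, against 2.00 and 2.60 in HP (1.54, adjusted p from limma 0.0623, not called). Zeb2, a repressor of epithelial genes, had 12, as many as any gene, and none of them in more than 2 lists. A region 164 kb upstream of Foxd3, a neural crest factor, was called at 0.977 in LP replicate 2 and 1.74 and 3.16 in HP, and one 194 kb upstream of Sox9 at 1.17 in LP replicate 2 and 1.57 and 2.74 in HP.

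Receptors and signalling genes of melanocytes had 25 regions at 8 of 14 genes, with 3 in all 4 lists and 0 called. Kit, the receptor of stem cell factor, had 6. The one at chr5:75453467-75454424, 121 kb upstream, stood at 0.872 and 1.37 in LP, against 1.48 and 5.05 in HP (1.32, adjusted p from limma 0.0919), with HP replicate 2 far above the rest. Ednrb, the endothelin receptor, had 4, and the one in all 4 lists, 55.1 kb upstream, stood at 1.48 and 0.912 in LP, against 1.92 and 2.46 in HP. Upstream of Gnaq, a G protein subunit, a region stood at 0.912 in LP replicate 2 and 2.44 and 2.46 in HP. Spry2, an inhibitor of receptor tyrosine kinase signalling, had 6 regions, none in LP replicate 1.

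Cell cycle genes had 7 regions, at 5 of 20 genes, and AP-1, dedifferentiation and invasion genes 18, at 8 of 20, with 0 called in either list. The share of all protein-coding genes with a region was not computed, so the gene counts show neither enrichment nor depletion. Near Ccne1, cyclin E, a region stood at 3.23 and 2.48 in LP, against 3.57 and 2.53 in HP, with log2 differences of 0.15 within replicate 1 and 0.03 within replicate 2. Upstream of Ccnd1, cyclin D, a region stood at 2.09 and 1.17 in LP, against 2.26 and 6.10 in HP, where HP replicate 2 alone stood apart. The 2 highest regions beside Fos, an immediate early AP-1 gene, stood at 2.88 and 2.34 in LP, against 2.61 and 5.54 in HP downstream, and at 2.96 and 2.08 in LP, against 2.18 and 5.12 in HP upstream. In both, replicate 1 was lower in HP and replicate 2 higher. A region 204 kb upstream of Jun stood at 1.05 in LP replicate 1 and 1.39 and 3.44 in HP. The median log2 difference of the regions in all 4 lists was 1.75 for the 3 of the melanin list, 0.99 for 6 of the transcription factors, 1.18 for 3 of the receptors, 0.67 for 2 of the cell cycle and 0.58 for 4 of the AP-1 list, beside 1.03 for the class. The markers of other cell types had 3 regions, at 3 of 16 genes, none in more than 2 lists.

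The regions called in both HP lists alone had median scaled pileups of 0.958 and 0.982, on 11 and 14 fragments. The most significant of them was at chr16:14827522-14828588 with Efcab1 as its nearest gene, at 2.35 and 3.86 with fold enrichments of 15.6 and 27.5, and 74.3% of its bases are soft-masked. Others had as their nearest gene Mccc2, a mitochondrial carboxylase, at 2.09 and 3.37, Enpep, an aminopeptidase, at 2.44 and 2.46, and Sipa1l2, 148 kb away, at 2.09 and 2.88, one of 11 regions of that gene. The regions called in both LP lists alone were lower, with medians of 0.610 and 0.651 on 7 and 10 fragments, narrower at 390 bp, and a median of 32.7 kb from a TSS against 23.5 kb for the HP pattern. First among them by significance was chr3:5860442-5860811, at 31.7 and 18.6 but with fold enrichments over the local background of 2.03 and 2.41. The second lay 23.7 kb upstream of Myc, the growth-promoting transcription factor, at chr15:61961528-61961934, with 1.22 and 1.04, and the third, nearest to Gm7271, stood at 1.05 and 0.847. No HP value exists for these 3, since a list gives pileups only at its own peaks.

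Within a library, the far intergenic regions in all 4 lists lay below promoters by 1.54 and 1.42 on the log2 scale in LP and by 1.30 and 1.44 in HP. The gap was 0.11 smaller in HP by the mean, and an exact permutation test of 2 against 2 libraries, two-sided, gave p = 0.667, where 0.333 is the smallest p the design allows. Against gene-body regions far from a TSS they stood 0.13 and 0.17 higher in LP and 0.14 and 0.11 higher in HP (exact permutation p = 0.667). Of all peaks in a list, far intergenic ones made up 27.5% (95% Wilson interval 27.1% to 27.8%) and 18.9% (18.6% to 19.2%) in LP and 18.3% (17.95% to 18.55%) and 16.6% (16.4% to 16.9%) in HP. Both HP shares were thus below both LP shares, with the exact permutation p at its minimum of 0.333, and LP replicate 1 stood apart. These intervals cover counting error only.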

How the data were processed

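H3K27ac ChIP-seq of LP and HP B16 F10 cells, 2 libraries each, was analysed from the deposited peak lists, with groups taken from the sample labels. Per the submitters' processing notes reads were handled with bcl2fastq 2.20, Trimmomatic 0.33, Bowtie2 2.5.1 and MACS3, on mm10, and the file headers give MACS 3.0.0b1, paired-end fragments, all duplicates kept, a q-value cutoff of 0.05 and, as control, the IgG library that shares the replicate number. The treatment of reads with several matches is not given in the sources used here. The deposited pileup signal is the number of fragments at a summit, unscaled. The fold enrichment (a ratio over local background) and the −log10 p-value and −log10 q-value were computed by the authors with MACS. They served only to describe, rank or filter.

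Each pileup was expressed per 1000000 fragments, using the fragment totals in the file headers. Peaks were merged at 1 bp, with the highest summit of a library as its value. Gene bodies and TSSs came from GENCODE M21 (GRCm38), all biotypes, and the distance is from the nearest edge of a region. The nearest gene is the protein-coding TSS nearest to the midpoint. limma 3.58.1 in R 4.3.3 compared log2 values of HP and LP over the regions called in 4 lists, with Benjamini-Hochberg adjustment. P-values measure the spread between these libraries, which may be technical. Python 3.11.15, pandas 2.3.3, numpy 2.4.6 and scipy 1.17.1 were used, and the merging and the fit were tested on simulated data. Of 200 changed regions among 12080 simulated ones, the fit called 2 at a log2 change of 1, 114 at 2 and 200 at 4. False calls numbered 0, 8 and 6. The simulation had no shift shared by all regions and gave every region the same spread, so it does not cover a wider spread at low counts. A region that was not called may therefore still differ.

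Named regions were the 12 highest next to a listed gene, those in 3 or 4 lists first, the 6 most significant in all 4 lists, 5 of the HP and 3 of the LP pattern, the 10 smallest p, the 3 farthest, widest and longest groups, and 2 on either side of the 10 kb limit. Other named regions were chosen after their values were seen. The members, gene lists and tests were chosen with earlier results of these data known. The alternatives were stricter q-values, trimmed peaks, other distances, annotations, scalings and summits, leaving out libraries or replicates, and a replicate block. Replicate numbers were not treated as pairs in the main fit, and whether they pair the samples was not settled. The deviations of the replicates correlated at 0.0152 over 12080 regions, a value blind to any shift of a whole library. No sequence from chromosome 18 is shown. Reads were not used here.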

Additional observations from a re-analysis of the deposited data

How the results depend on the processing

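The 40 regions called higher in HP rested on the scaling and on single libraries. Centring each library gave 0 calls and a median log2 difference of 0.023, quantile normalization 0 and 0.082, scaling to fragments times fragment length 1, the mean of the summits 0, and peaks cut to 100 bp on either side of the summit 4. Leaving out 1 library gave 0 to 299 calls, with 299 without HP replicate 1, and a median difference of 0.74 to 1.37, where the lone library of a group is assumed to vary like the other group. With the replicate number as a block 7 were called, all 7 among the 40. Whether the numbers pair the samples was not settled, and the median difference was the same. The cause of these losses was not tested.

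The number of regions moved with the rule: 2118 beyond 20 kb, 689 beyond 50 kb and 6241 against protein-coding genes only, and 844 to 3151 without a replicate or library. The calls higher in HP were then 21, 3 and 81. The HP pattern held 658, 206 and 1849 regions under the same 3 rules. Among the 3540 regions it held 1423 without replicate 1, 1891 without replicate 2, 1302 without LP replicate 1 and 1709 without LP replicate 2. It held 1116 without HP replicate 1 and 1116 without HP replicate 2. These 2 values were fixed in advance, because a region left with an HP call alone needed the other HP call to be kept. The LP pattern held 36 beyond 50 kb and 66 at a q-value of at most 0.01. It held 299 without replicate 1, 254 without replicate 2, 117 without HP replicate 1 and 133 without HP replicate 2. Its 107 without either LP library was fixed likewise. The share of peaks differed by -10.02 to -1.44 points. The HP minus LP difference in the level relative to promoters ran from -0.022 (without replicate 1) to 0.25. The difference relative to gene-body regions ran from -0.065 (q-value of at most 0.01) to 0.012 (without replicate 2), with -0.060 without replicate 1. Neither HP minus LP difference has a stable direction.

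Chosen after seeing the data, leaving out RefSeq genes too gave 2582 regions with 28 calls, and leaving out the 4.5S array kept 40 calls. Of 289 values for the 25 named regions in all 4 lists, 171 kept their direction and side of the threshold, 97 lost a call, 4 gained one and 17 changed sign. For the Fos region at 85485118 the difference was -0.46 centred, -0.46 with quantiles and -0.039 with mean summits. For the Fos region at 85454007 it was -0.59, -0.60 and, without HP replicate 2, -0.19, with 1.04 at the other end of the range without 1 library. For Ccne1 it was -0.92 and -0.87, -0.10 without LP replicate 2 and -0.16 without HP replicate 1, with 0.34 without HP replicate 2. Klf4 (-0.41 and -0.048) and Zfp239 (-0.41 and -0.16) changed sign under both scalings, and the Pdia4 regions at 47752648 (-0.049), 47748278 (-0.28) and 47744192 (-0.36) when centred, with 0.42, 0.22 and 0.14 under quantile normalization. The rest is limited by the small counts: many summits rest on at most 10 fragments, and a region without a call has no value.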
